A study of Homo sapiens with 4 samples.

Results

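The RNAs described here are 8 widely studied long noncoding RNAs, *MEG3*, *H19*, *MIAT*, *TUG1*, *GAS5*, *DANCR*, *CRNDE* and *SNHG1*, out of 57820 genes in the deposited count table. They were chosen by name, and each was measured by adding the counts of every transcript listed under its symbol. The libraries came from SK-N-SH, a human neuroblastoma line. There were 2 libraries of cells carrying an empty lentiviral vector (vector control) and 2 of cells carrying a lentivirus with *RP5-998N21.4* under an EF1a promoter (*RP5-998N21.4* OE, below OE). The lentiviral backbone is thus shared by all 4 libraries, and the control titles read WT although the treatment label, followed here, gives the empty vector. No source used here says whether the libraries of a group came from separate cultures, so the p-values measure only the spread between these libraries, which may be technical.

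Long noncoding RNAs are transcribed and usually spliced like messenger RNAs but are not known mainly for a protein product. *GAS5* and *SNHG1* are small nucleolar RNA (snoRNA) hosts, whose introns carry snoRNAs that guide chemical modification of ribosomal RNA and whose spliced exons are commonly removed by nonsense-mediated decay. *H19* and *MEG3* are imprinted, expressed from the maternal chromosome, and lie in clusters with the paternally expressed growth genes *IGF2* and *DLK1*. *MIAT* is a nuclear RNA of neurons that binds splicing factors, *TUG1* is a broadly expressed RNA known from neural tissue, and *DANCR* and *CRNDE* are known from undifferentiated and tumour cells.

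Library totals ran from 23785164 to 28307591 counts, and mitochondrial genes took 6.01% to 6.5% of them. Levels are given below as CPM (counts as a share of the library, scaled to a fixed size) by edgeR's TMM factors of 0.976 to 1.023. The overexpressed gene *RP5-998N21.4* had 32 and 33 counts with the empty vector and 2407 and 2808 in OE, which checks the labels, although a near-identical transcript of another gene may share these reads. Of 12 sympathetic neuroblastoma markers, 11 were tested and *TH*, the rate-limiting enzyme of catecholamine synthesis, had 0 counts. The summed level of this list was 746.3 to 811.3 CPM with the empty vector and 1250 to 1294 CPM in OE. All 11 tested markers were higher in OE in both libraries, as were 27.8% of all tested genes. Of the 11, 9 were higher at an unadjusted p under 0.05, beside 10.1% of all tested genes. Their median log2 fold change was 0.96. Of 12 markers of other cell types, 4 could be tested and their list summed to 67.75 to 71.72 CPM with the empty vector and 55.95 to 60.98 CPM in OE, while *AIF1*, *AQP4*, *CDH5* and *ALB* had 0 counts in every library. All 4 tested ones had a log2 fold change below 0, with a median of -1.14. Of these, 0 had an unadjusted p under 0.05, beside 10.7% of all tested genes that were lower at that p. Most of that sum was *KRT18*, a keratin, at -0.06, and the macrophage marker *CD68* had 240 and 237 counts with the empty vector and 2 and 126 in OE. The part of these marker differences in the results below was not tested.

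Several of the RNAs differ between libraries in the transcript to which counts were assigned, and the bases that separate those transcripts are shown first. The positions come from the GENCODE v44 annotation lifted to GRCh37 (hg19), which holds later versions of the transcript identifiers of the table. *H19* lies on chr11:2016396-2025782, minus strand. Its transcripts ENST00000414790 and ENST00000411861 differ chiefly by an intron of 81 bases, chr11:2017025-2017105, which is spliced out of the first and kept within the last exon of the second. The stretch is printed 5′ to 3′ on the transcribed strand with 20 exonic bases on each side, and the capitals mark the first and last 2 bases of the intron.
H19 intron: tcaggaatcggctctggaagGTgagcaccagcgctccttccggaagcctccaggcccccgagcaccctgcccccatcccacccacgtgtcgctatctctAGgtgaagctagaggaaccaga

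*DANCR* lies on chr4:53578492-53589790, plus strand, and its 2 main transcripts begin with different first exons. ENST00000411630 starts at chr4:53578492-53578551 and ENST00000425653 at chr4:53578713-53578772, which are the first 60 bases of each, both in hg19 and shown to make the alternative starts visible.
ENST00000411630: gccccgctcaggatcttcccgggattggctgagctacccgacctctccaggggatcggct
ENST00000425653: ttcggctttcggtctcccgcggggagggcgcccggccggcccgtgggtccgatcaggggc

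Host genes of snoRNAs often start with a run of pyrimidines, the 5′ terminal oligopyrimidine motif of genes for the translation machinery. *GAS5* lies on chr1:173827697-173838020 and *SNHG1* on chr11:62619450-62623425, both on the minus strand. In the first 30 bases of *GAS5* transcript ENST00000416952 (chr1:173837100-173837129), the first run of at least 5 pyrimidines starts at base 2 and is 7 long. In *SNHG1* transcript ENST00000538654 (chr11:62623328-62623357), it starts at base 5 and is 7 long, after a shorter run broken by an adenine. The runs are in capitals. *GAS5* transcript ENST00000421068 is annotated to start further in, and its first such run begins at base 19.
GAS5 start: gTCTTTTCgaggtaggagtcgactcctgtg
SNHG1 start: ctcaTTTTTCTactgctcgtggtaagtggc

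The window before *MIAT* is printed because this RNA was among those with the lowest p-values. It holds 250 bases before the transcript start and 50 after it. The window, chr22:27042143-27042442 on the plus strand of hg19, is the RefSeq promoter of GRCh38.p14 placed in hg19 by an exact match. Both strands were searched for the TATA box as TATAAA, for the CCAAT box, for the GC box as GGGCGG, for the E-box of MYC-type factors as CACGTG, for another E-box as CAGATG, and for the interferon-stimulated response element by its repeated GAAA core with 2 free bases between the copies. Matches are in capitals.
MIAT window: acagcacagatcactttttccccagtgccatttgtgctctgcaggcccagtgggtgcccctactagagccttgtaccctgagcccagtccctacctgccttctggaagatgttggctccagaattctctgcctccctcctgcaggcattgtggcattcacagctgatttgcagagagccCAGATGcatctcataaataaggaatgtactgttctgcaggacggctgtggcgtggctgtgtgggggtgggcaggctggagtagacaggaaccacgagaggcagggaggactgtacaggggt

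The *MIAT* window held CAGATG 71 bases before the start and none of the other letters searched. In windows of the same length for 7 of the RNAs, *H19* left out, GGGCGG occurred in 4, CCAAT in 2, TATAAA in 2 (18 bases before the start in *MEG3*, and on the opposite strand at base 40 after the start in *SNHG1*, inside the transcript), CACGTG in *GAS5* and the interferon element in 0. Among 35116 RefSeq promoters of 300 bases, GGGCGG occurred in 44.95%, CCAAT in 34.61%, TATAAA in 11.53%, CACGTG in 7.26%, CAGATG in 14.7% and the interferon element in 3.57%. The windows of *MIAT* and *TUG1* had 3 and 1 CpG dinucleotides and that of *CRNDE* had 53, beside a median of 14 over the RefSeq promoters. The windows of *TUG1*, *GAS5*, *DANCR*, *CRNDE* and *SNHG1* are set on the start of the annotated transcript with the most counts, and those of *MEG3* and *MIAT* on the RefSeq start. The former lay 2998 bases from the RefSeq start for *TUG1*, 1058 for *GAS5*, 170 for *CRNDE*, 152 for *DANCR* and 0 for *SNHG1*, so the windows of *TUG1* and *GAS5* share no bases with their RefSeq promoters.

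The comparison of OE with vector control asked which transcripts differ in cells with more *RP5-998N21.4*. It was made with edgeR's quasi-likelihood test over 20528 genes, with calls requiring an adjusted p below 0.01 and a log2 fold change beyond 0.5 in either direction. Of the 8 RNAs, 7 passed the filter on low counts and *MEG3* did not. By edgeR, 0 of the 7 were called, and 0 of all tested genes (0%). The overexpressed *RP5-998N21.4* itself, at a log2 fold change of 6.11, was not called either (edgeR adjusted p = 0.0109). An absent call is thus no measure of an absent difference. At an adjusted p under 0.05 the calls were again 0 of 7, beside 0.594% of all genes. At an unadjusted p under 0.05, 4 of the 7 were higher in OE (*H19*, *MIAT*, *GAS5* and *SNHG1*) and 0 were lower, beside 10.1% of all tested genes higher and 10.7% lower. DESeq2 on the same genes called 3 of the 7 as higher, *H19*, *MIAT* and *GAS5*, beside 4.35% of all genes, and limma-voom called 0. Both OE libraries lay above both control libraries for 5 of the 7, beside 27.8% of all genes, and for 0 did both lie below, beside 27.6% of all genes. The median log2 fold change was 0.31 over the 7 and 0.01 over all tested genes.

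**Figure D1:**
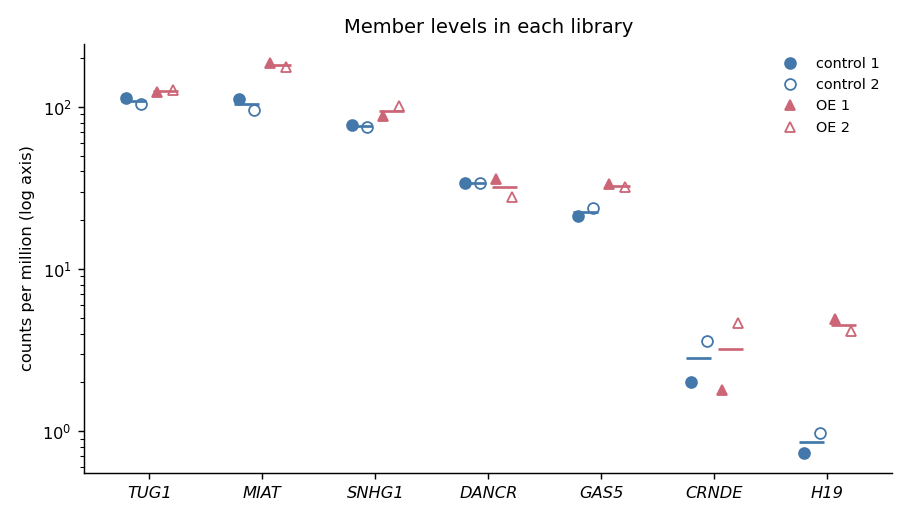
Level of each RNA in each library in CPM on a log axis, with circles for vector control, triangles for OE and bars for the mean of each group (n = 2). The OE points of *H19*, *MIAT*, *GAS5*, *SNHG1* and *TUG1* lie above both control points, and the points of *DANCR* and *CRNDE* interleave; *MEG3*, with 0 counts, is not drawn.

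*H19*, the imprinted RNA that is also the precursor of microRNA miR-675, was the least abundant of the tested RNAs with the empty vector and had the largest difference. Its counts were 17 and 23 with the empty vector and 123 and 120 in the OE libraries, so the groups did not overlap. The level was 0.855 ± 0.176 CPM (SD, n = 2) with the empty vector and 4.53 ± 0.533 CPM (SD, n = 2) in OE. The log2 fold change was 2.40, with a standard error of 0.261, a 95% interval of 1.65 to 3.14 and an edgeR adjusted p of 0.0685. DESeq2 gave 2.40 with an adjusted p of 4.412e-10. The log2 fold change without any 1 library lay between 2.20 and 2.62.

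All but a few *H19* counts were assigned to 1 transcript per group, and not to the same one. ENST00000414790, without the 81-base intron, had 13 and 22 counts with the empty vector and 0 in both OE libraries. ENST00000411861, with the intron kept, had 0 in both control libraries and 122 and 119 counts in OE, over 99% of the counts of the gene. The first control library also had 2 counts each on ENST00000417089 and ENST00000428066. Because the deposited values are counts already assigned to transcripts that share nearly all their bases, how many reads crossed or lay in the intron cannot be read from them.

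**Figure D2:**
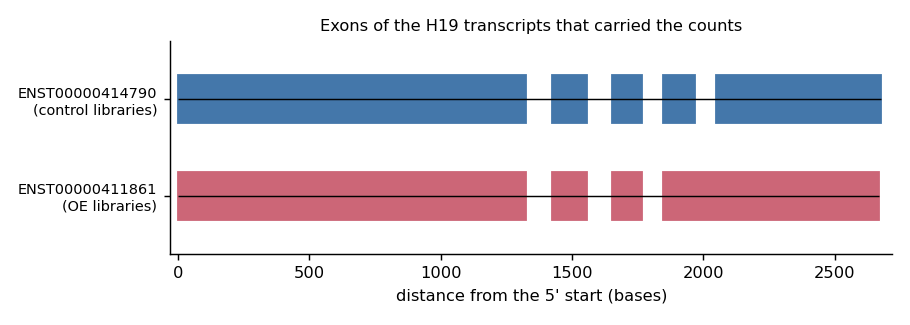
Exons of the pair of *H19* transcripts that carried the counts, as boxes along the distance in bases from the 5′ start. The models share their first exons, and the transcript counted in the OE libraries keeps the 81-base intron that splits the last exon region of the one counted in the control libraries.

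The mature forms of miR-675 are given for identity, as RefSeq lists them on chr11 in GRCh38.p14, with the seed, bases 2 to 8, in capitals. The seeds differ between the arms, and RNA-seq libraries of this kind are not made to capture mature microRNAs.
hsa-miR-675-5p: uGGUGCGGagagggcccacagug
hsa-miR-675-3p: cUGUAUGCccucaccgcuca

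*MEG3*, the imprinted partner of *DLK1*, had 0 counts in all 4 libraries on each of its 28 listed transcripts. A count of 0 allows up to 3 counts, which is 0.129 and 0.128 CPM with the empty vector and 0.12 and 0.104 CPM in OE, so expression up to those levels was not detectable if the values are read counts. Its locus is chr14:101245747-101327368, plus strand, and the neighbouring noncoding genes *MEG8* and *MEG9* also had 0 counts in every library.

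The imprinted partners of *H19* and *MEG3* were taken as a list of 13 genes, of which 8 were tested and 0 were called by edgeR. They were higher for 5 and lower for 3, with a median log2 fold change of 1.03. An unadjusted p under 0.05 was reached by 4 higher and 0 lower genes, beside 10.1% and 10.7% of all tested genes. *DLK1*, a membrane protein related to Notch ligands, had 26 and 20 counts with the empty vector and 74 and 93 in OE, a log2 fold change of 1.64 (standard error 0.252, edgeR adjusted p = 0.0931). *RTL1*, a retrotransposon-derived gene of the same cluster, had 24 and 27 against 54 and 74 counts, with a log2 fold change of 1.11. *KCNQ1*, a potassium channel gene of the neighbouring imprinted domain on chromosome 11, had 27 and 27 against 57 and 63 counts, with 0.94. *IGF2*, the growth factor next to *H19*, had 0 and 9 counts with the empty vector and 32 and 43 in OE, with a log2 fold change of 2.82 whose standard error was 1.16. *CDKN1C*, an inhibitor of cyclin-dependent kinases that was the last of the 4 and is named after its values were seen, had 27 and 48 against 103 and 105 counts. The lower members had small differences, -0.14 for *PHLDA2*, -0.21 for *KCNQ1OT1* and -0.11 for *SLC22A18*. Each of the higher genes named had at most 105 counts in any library.

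*MIAT*, on chr22:27042375-27072438, plus strand, had 2603 and 2261 counts with the empty vector and 4646 and 5126 in OE. Both OE libraries were above both control libraries, at 104 ± 11 CPM (SD, n = 2) with the empty vector and 181 ± 5.61 CPM (SD, n = 2) in OE. The log2 fold change was 0.80 (standard error 0.106, 95% interval 0.50 to 1.10), with an edgeR adjusted p of 0.0791 and a DESeq2 adjusted p of 1.421e-10. It lay between 0.69 and 0.91 without any 1 library. Genes on the opposite strand and downstream overlap the *MIAT* locus, and whether the counting used strand is not given in the sources used here.

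The *MIAT* counts also lay on different transcripts in the groups. ENST00000430080 held 2603 and 2261 counts with the empty vector, 100% of the gene, and 0 in both OE libraries. ENST00000423278 held 0 in both control libraries and 4414 and 4952 counts in OE, over 95% of the gene in both. The rest of the OE counts was on ENST00000413665 in the first library (232 counts) and on ENST00000439738 in the second (174 counts).

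An exchange of this kind, with the top transcript shared within each group, different between groups and at 0 counts in the other group, was found for *H19* and *MIAT* among the 7 tested RNAs. It was found for 129 of 14867 tested genes with at least 2 listed transcripts (0.868%). Exchanges between libraries of the same group were counted by a looser rule that compares only the 2 libraries of that group. Their counts therefore cannot be set directly against the 129. The control libraries had different top transcripts, each at 0 in the other library, for 987 genes (6.64%), and the OE libraries for 947. *DANCR* was one of the former. The transcript counts are given here as they were assigned and as no measurement of splicing.

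**Figure D3:**
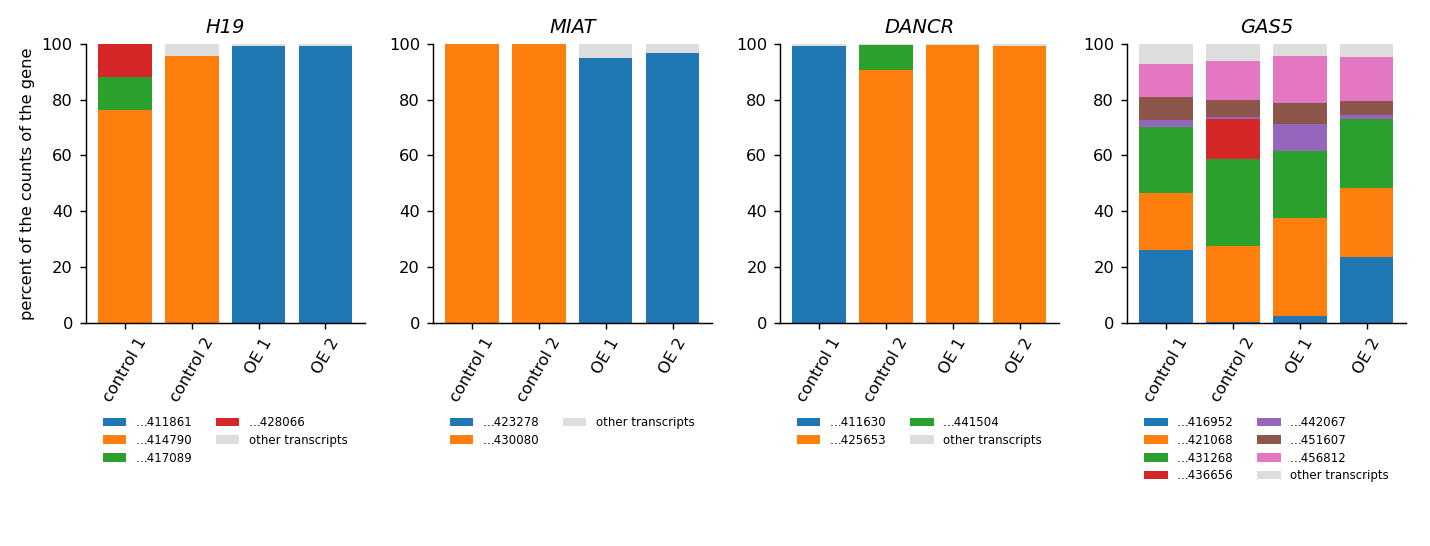
Percent of the counts of *H19*, *MIAT*, *DANCR* and *GAS5* on each transcript in each library, for transcripts with at least 5% in some library, named by the last 6 digits of their identifier. *H19* and *MIAT* differ between the groups, the first control library stands alone for *DANCR*, and *GAS5* is spread over 7 transcripts in varying shares.

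*GAS5*, a snoRNA host known to accumulate when growth stops, had 496 and 561 counts with the empty vector and 834 and 928 in OE. The groups did not overlap, at 22.6 ± 1.82 CPM (SD, n = 2) and 32.7 ± 0.816 CPM (SD, n = 2). Its log2 fold change was 0.53 (standard error 0.112, 95% interval 0.21 to 0.85), with an edgeR adjusted p of 0.129 and a DESeq2 adjusted p of 0.000211. Without any 1 library it was 0.45 to 0.61. The gene overlaps other genes, among them *GAS5-AS1*, *ZBTB37* and *SNORD78*, which leaves its counts uncertain if strand was not used.

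*GAS5* had counts on 22 of its 36 listed transcripts, with none of them holding most of the gene. ENST00000421068 had 102 and 154 counts with the empty vector and 292 and 231 in OE, and ENST00000456812 had 59 and 78 against 141 and 147. ENST00000431268, with 117 and 174 against 201 and 230 counts, was also higher in both OE libraries. ENST00000451607 had 41 and 36 against 62 and 47 counts. Other transcripts varied within the groups. ENST00000416952 had 129 and 1 counts with the empty vector and 20 and 218 in OE, ENST00000436656 had 80 counts in the second control library and 0 elsewhere, and ENST00000442067 had 13 and 4 against 82 and 11.

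*SNHG1*, the other snoRNA host of the set, had 1811 and 1760 counts with the empty vector and 2206 and 2917 in OE. Its level was 76.3 ± 2.03 CPM (SD, n = 2) with the empty vector and 94.4 ± 9.14 CPM (SD, n = 2) in OE, without overlap. The log2 fold change was 0.31 (standard error 0.107), and the lower end of its 95% interval was 0.0016. It lay between 0.20 and 0.40 without any 1 library, and was 0.20 without the second OE library. The edgeR adjusted p was 0.239 and the DESeq2 adjusted p 0.0465, above the threshold for a call. From 95.6% to 97.4% of its counts lay on ENST00000538654 in every library. A further 9 transcripts listed under *SNHG1* and 8 under *GAS5* had 1 or 2 counts in each of the 4 libraries, 7 and 6 of them exactly 1 count in every library. In all, 242 listed transcripts had exactly 1 count in all 4 libraries, and whether the deposited whole numbers are read counts or rounded estimates is not given in the sources used here.

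Of 24 listed noncoding and protein-coding snoRNA hosts other than *GAS5* and *SNHG1*, 20 were tested and 0 were called by edgeR. They were higher for 16 and lower for 4, with a median log2 fold change of 0.41 (0.26 without the first OE library). With an unadjusted p under 0.05, 6 were higher and 1 lower, beside 10.1% and 10.7% of all tested genes. *SNHG8* had 447 and 432 counts with the empty vector and 804 and 865 in OE, a log2 fold change of 0.72 (standard error 0.105, edgeR adjusted p = 0.0878). *SNHG15* had 527 and 524 against 1009 and 981 counts, with a log2 fold change of 0.72. *SNHG3* had 562 and 606 against 820 and 1140, with 0.53. The largest lower value was that of *HSPA8*, a heat shock cognate protein gene with snoRNAs in its introns, at 4678 and 4216 counts with the empty vector and 2379 and 1937 in OE, with a log2 fold change of -1.23. *SNHG16* (-0.13) and *RACK1* (-0.04) had overlapping groups. The summed level of this list was 840.3 to 921 CPM with the empty vector and 841 to 903.1 CPM in OE, so its sum, which the abundant members set, overlapped between groups.

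Small RNA genes listed for the members were nearly without counts where they had an entry, and 2 reached 10 counts in any library. *SNORD25*, *SNORD26*, *SNORD47*, *SNORD76*, *SNORD80* and *MIR675* had no entry under these symbols and were not measured as such. Some other symbols had several entries, and positions were looked up only for the 2 genes below. *SNORD78* (ENSG00000208317.1), chr1:173834760-173834824 within *GAS5*, had 21 and 30 counts with the empty vector and 51 and 36 in OE. *SNORA26* (ENSG00000212588.1), chr4:53579416-53579537 within *DANCR*, had 9 and 5 counts against 20 and 16. Neither passed a threshold by edgeR, with adjusted p of 0.478 for *SNORD78* and 0.327 for *SNORA26*. Reads of the host's unspliced RNA cannot be told apart from those of the snoRNA in these counts.

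*TUG1*, on chr22:31365231-31375381, plus strand, is listed as protein-coding by the later annotation. It had 2650 and 2464 counts with the empty vector and 3114 and 3696 in OE, all on ENST00000602393, and 2 other noncoding genes overlap its locus. The level was 109 ± 6.32 CPM (SD, n = 2) with the empty vector and 126 ± 2.60 CPM (SD, n = 2) in OE, without overlap. The log2 fold change of 0.20 (standard error 0.0832, 95% interval -0.03 to 0.44) did not pass, with an edgeR adjusted p of 0.286 and a DESeq2 adjusted p of 0.0751.

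*DANCR* had 794 and 798 counts with the empty vector and 901 and 808 in OE, and in CPM one OE library lay above and the other below the controls. The level was 34.0 ± 0.0968 CPM (SD, n = 2) with the empty vector and 31.9 ± 5.64 CPM (SD, n = 2) in OE, a log2 fold change of -0.09 with a 95% interval of -0.55 to 0.36 (edgeR adjusted p = 0.786). Without the first OE library it was -0.28, and without the second its sign turned, to 0.08. The transcripts again exchanged, here within the control group. ENST00000411630, with the upstream first exon, had 788 counts in the first control library and 0 in the other 3. ENST00000425653, with the downstream first exon, had 0 in that library and 723, 897 and 801 in the others, and ENST00000441504 had 71 counts in the second control library alone. The gene sum thus hardly differed between the control libraries while the transcript did, and 6 other genes, *SNORA26* among them, overlap the locus.

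*CRNDE*, on chr16:54879101-54963101, minus strand, had the widest spread between libraries of a group. Its counts were 47 and 85 with the empty vector and 45 and 134 in OE, all on ENST00000501177, so that the highest and the lowest library were both OE. The level was 2.82 ± 1.13 CPM (SD, n = 2) and 3.21 ± 2.01 CPM (SD, n = 2), and the log2 fold change of 0.19 had a 95% interval of -1.52 to 1.91 (edgeR adjusted p = 0.889). The sign turned without the first control library (-0.17) and without the second OE library (-0.65), and the value was 0.67 without the second control library and 0.72 without the first OE library. A *CRNDE* difference anywhere within that interval is compatible with these counts, and 1 other gene overlaps its locus.

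**Figure D4:**
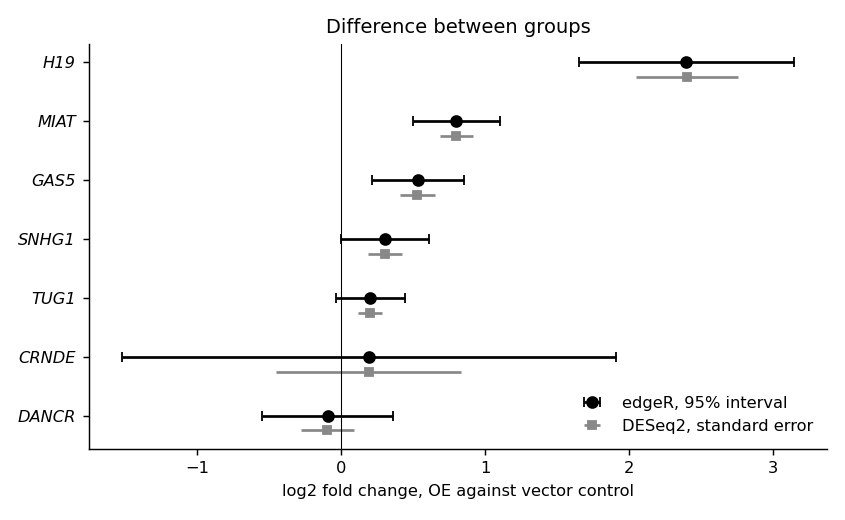
Log2 fold change of OE against vector control for the 7 tested RNAs, with black circles and 95% intervals from edgeR and grey squares and standard errors from DESeq2. The intervals of *H19*, *MIAT*, *GAS5* and *SNHG1* lie above 0, that of *SNHG1* by 0.0016, and those of *TUG1*, *CRNDE* and *DANCR* include 0.

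Over 14 alternative settings, the adjusted p ran from 4.412e-10 to 0.296 for *H19*, from 1.421e-10 to 0.296 for *MIAT* and from 0.000211 to 0.357 for *GAS5*. It ran from 0.0465 to 0.451 for *SNHG1* and from 0.0751 to 0.521 for *TUG1*, and the sign of the log2 fold change of these 5 RNAs was positive in all 14.

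Levels of different RNAs were compared as CPM per kilobase of the transcript each count was assigned to. In the vector control the order was *TUG1* at 49.0 ± 2.82, *DANCR* at 32.2 ± 3.41, *SNHG1* at 28.8 ± 0.608, *GAS5* at 21.0 ± 1.85, *CRNDE* at 3.57 ± 1.43 and *H19* at 0.372 ± 0.0439 CPM per kilobase (SD, n = 2). *DANCR* and *SNHG1* differed there by no more than the SD of *DANCR*. In OE the values were *TUG1* 56.4 ± 1.16, *SNHG1* 35.4 ± 3.33, *DANCR* 30.2 ± 5.31, *GAS5* 29.9 ± 0.085, *CRNDE* 4.07 ± 2.54 and *H19* 1.87 ± 0.221 CPM per kilobase (SD, n = 2). *SNHG1* and *DANCR*, *DANCR* and *GAS5*, and *CRNDE* and *H19* were neighbours that differed by less than the larger SD in OE. *MIAT* has no place in this order because 2.77% of its counts fell on transcripts with a known length. With the longest annotated transcript of each gene as the length, *MIAT* was at 10.3 ± 1.08 CPM per kilobase with the empty vector and 17.9 ± 0.555 in OE (SD, n = 2), and the order itself was different, as *SNHG1* was then above *TUG1* in both groups.

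Other widely studied long noncoding RNAs were a list of 40 genes, of which 22 were tested, 12 higher and 10 lower. Among them 4 were higher and 1 lower at an unadjusted p under 0.05, beside 10.1% and 10.7% of all tested genes. By edgeR 0 were called, and the median log2 fold change was 0.13 (0.27 without the first OE library and 0.06 without the second). *HAND2-AS1*, antisense to a transcription factor gene of sympathetic neurons, had 6365 and 5826 counts with the empty vector and 11942 and 13328 in OE, a log2 fold change of 0.85 (standard error 0.0738, edgeR adjusted p = 0.059). *NEAT1*, the scaffold RNA of paraspeckles, had 53041 and 50979 against 101283 and 98140 counts, with 0.74. *GATA3-AS1* had 188 and 167 against 368 and 385, with 0.88. On the lower side, *NORAD*, which binds Pumilio proteins, had a log2 fold change of -0.28 at an edgeR adjusted p of 0.119. *MALAT1*, a nuclear speckle RNA, had 25179 and 12841 counts with the empty vector and 15410 and 14330 in OE, the first control library standing far above the other 3, with a log2 fold change of -0.55. *TP53TG1* had -0.20.

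**Figure D5:**
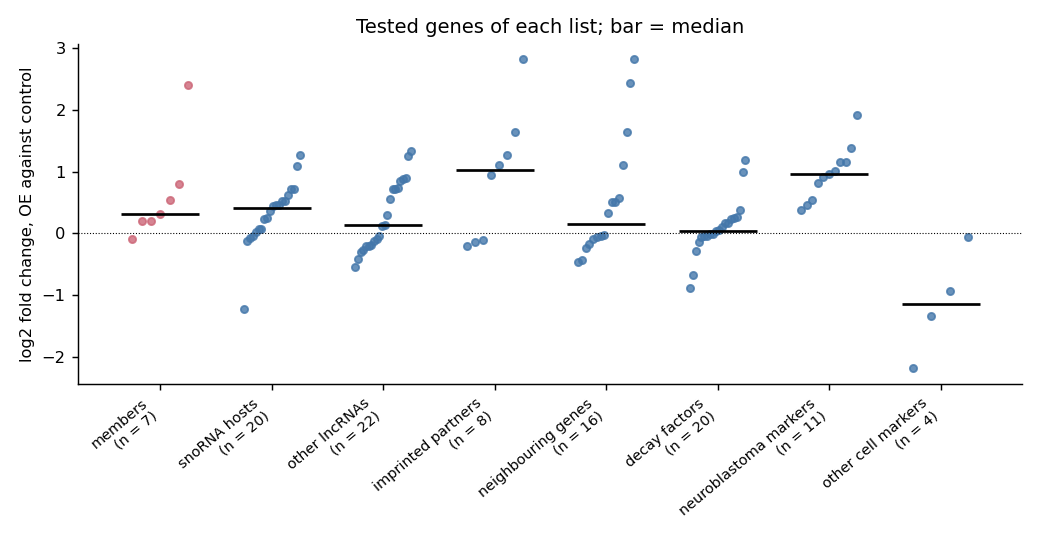
Log2 fold change of every tested gene of each list, 1 point per gene, with a bar at the list's median. The 7 tested RNAs have their median at 0.31, the snoRNA hosts at 0.41, the imprinted partners at 1.03 and the neuroblastoma markers at 0.96, and the nonsense-mediated decay factors at 0.04.

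Of 21 genes next to the members, 16 were tested, 8 higher and 8 lower. The median log2 fold change was 0.16 (0.24 without the first control library and 0.28 without the second OE library). Of the tested neighbours 6 were higher and 1 lower at an unadjusted p under 0.05, beside 10.1% and 10.7% of all tested genes. By edgeR 0 were called. *MRPL23-AS1*, on chr11:2004467-2011223 and the same strand as *H19*, starts 5173 bases downstream of it. It had 28 and 21 counts with the empty vector and 156 and 149 in OE, a log2 fold change of 2.43 (standard error 0.258, edgeR adjusted p = 0.0663), while *MRPL23*, the mitochondrial ribosomal protein gene it is named for, had -0.06. Beside *SNHG1*, the amino acid transporter subunit *SLC3A2* had 4122 and 4416 against 6834 and 7044 counts and a log2 fold change of 0.50, *WDR74* had -0.18 and *STX5* -0.02. Beside *TUG1*, *MORC2* had 610 and 659 against 1014 and 1070 counts and a log2 fold change of 0.51, and *SMTN* had -0.44. The homeobox genes *IRX3* and *IRX5* beside *CRNDE* had 0.58 and 0.33, with both OE libraries above both control libraries. Beside *GAS5*, *ZBTB37* had -0.23, and beside *DANCR*, *USP46* had -0.05 and *SCFD2* -0.09. The remaining tested neighbours, *DLK1*, *RTL1* and *IGF2*, are described above.

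The genes of these lists with the pattern over the 4 libraries most like that of each RNA were found by the root mean square difference of log2 CPM centred on each gene's mean, among 82 genes. For *H19* they were *MRPL23-AS1* (0.279) and *DLK1* (0.467). *MIAT* was nearest to *HAND2-AS1* (0.0347) and *GATA3-AS1* (0.0466), and *GAS5* to *MORC2* (0.0372) and *SLC3A2* (0.0509). For *TUG1* the nearest were *SMG1* (0.0227) and *TAF1D* (0.0309), for *SNHG1* *DCP2* (0.041) and *TAF1D* (0.0569), for *DANCR* *STX5* (0.0491) and *SCFD2* (0.0622), and for *CRNDE* *FTX* (0.363) and *LINC00511* (0.368). With 4 libraries these distances describe the libraries and no relation between the genes.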

How the data were processed

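RNA-seq was performed on 4 libraries of SK-N-SH cells, 2 vector control and 2 OE, grouped by the treatment label. The authors trimmed reads with Trimmomatic, mapped them with Bowtie2 to hg19 and deposited unnormalized whole-number counts for each transcript. The submitters' processing notes also name StringTie 2.1.6, Picard 2.21.6 and DESeq2. The counting tool, annotation release and strand setting are not given in the sources used here, so the whole numbers may be rounded estimates; they were tested as counts.

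The counts of 196520 transcripts were summed per gene, and 20528 genes passing filterByExpr were TMM-normalized and tested with edgeR 4.0.16 (quasi-likelihood, no covariates, Benjamini-Hochberg) in R 4.3.3. The paper's methods name DESeq2, which was run as an alternative (1.42.0), with limma-voom 3.58.1. Calls required an adjusted p below 0.01 and a log2 fold change beyond 0.5 in either direction. A count of 0 was read as up to 3 counts; intervals of 95% cover the spread between libraries, and limits cover counting error only. The edgeR fit alone was tested on simulated counts, which were set to vary less between libraries than these data.

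The members and lists were chosen with earlier results of these data known. Genes named from each list are up to 3 per direction with the smallest p and a mean of at least 1 CPM, every tested neighbour, and hosted small RNA genes with at least 10 counts. Transcripts with at least 5% of a gene's counts are given. Alternatives were RLE and upper-quartile scaling, other filters, edgeR's non-legacy setting, the highest-count transcript, a replicate block and leaving out each library. Positions and lengths came from GENCODE v44 lifted to GRCh37. The values of 1 neighbouring gene and of 1 promoter window are not reported here.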

Additional observations from a re-analysis of the deposited data

How the results depend on the processing

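By edgeR the count of called genes was 0, and it was 1800 and 1722 with DESeq2 on the same genes and on genes with at least 10 counts in total, 8 with the non-legacy setting, 9 with a minimum of 1 count in total, 1 with the highest-count transcript of each gene and 122 at an adjusted p under 0.05. The called members were 0 by edgeR and 3 in both DESeq2 fits, where *H19* (2.40 in both), *MIAT* (0.80 in both) and *GAS5* (0.53 in both) passed. Leaving out 1 library at a time gave from -0.284 to 0.0768 for *DANCR*, from -0.65 to 0.72 for *CRNDE* and from -0.0211 to 0.0564 for the median of the nonsense-mediated decay factors, each with both signs, and the highest-count transcript gave 1.04 for *DANCR*. The cause was not tested. The same setting gave 0.84 for *GAS5*, and 9.82 for *H19* and 15.09 for *MIAT*, whose highest-count transcripts had 0 counts in both control libraries, so that these fitted values depend on the prior count and are no bound. A replicate block gave 0 called genes and members and log2 fold changes of 2.40 for *H19* and 0.80 for *MIAT*, and changed no call. Libraries of the same number share only a number: the correlation of their deviations over tested genes was -0.02. *MIAT* has no main level per kilobase, and with the longest transcript as the length the levels of *TUG1* (14.6 in vector control and 16.9 in OE), *GAS5* (7.18 and 10.4), *DANCR* (5.61 and 5.26), *CRNDE* (0.446 and 0.508) and *SNHG1* (20.2 and 25.0) moved.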

Other observations

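The nonsense-mediated decay machinery, which removes the spliced exons of many snoRNA hosts, was measured through 20 genes, all of them tested. They were higher in OE for 11 and lower for 9, and 0 were called by edgeR. Those with an unadjusted p under 0.05 were 3 higher and 0 lower, beside 10.1% and 10.7% of all tested genes. The median log2 fold change was 0.04, and was 0.01 without the second control library and -0.02 without the first OE library. *MAGOH*, a core protein of the exon junction complex, had 41 and 48 counts with the empty vector and 92 and 112 in OE, a log2 fold change of 0.99 (standard error 0.197, edgeR adjusted p = 0.121). *DHX34*, a helicase of the pathway, had 0.38, and *SMG1*, the kinase that phosphorylates UPF1, had 0.24. On the lower side, the 5′ to 3′ exonuclease gene *XRN2* had -0.29, *UPF3A* -0.89 and *CASC3* -0.68. The last 2 had 1 OE library far below the other 3, at 237 counts for *UPF3A* and 1086 for *CASC3*. *UPF1* itself had -0.04, with overlapping groups; it is named after its values were seen.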
